A study of Mus musculus with 36 samples.

Results

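RNA of PKBa-/- mouse embryonic fibroblasts was compared between time 48 and time 0, on 4 arrays at each time. These 8 arrays, of 36 in the study, were chosen by the genotype and time in their labels and by no measured value. The study followed wild type and PKBa-/- fibroblasts on Affymetrix arrays at times 0, 2, 6, 24 and 48, in 10 groups of 4 arrays, or of 2 at time 2. The labels state no unit of time. PKBa-/- cells lack Akt1, the gene of protein kinase B alpha, and no other allele is named. Per the labels, both genotypes were derived from 13.5-day embryos of heterozygous parents, were kept in DMEM with foetal calf serum, and were used at passages 15 to 20. The series title speaks of DMEM treatment; the protocol for RNA extraction goes further and lists a medium that induces adipocytes, with isobutylmethylxanthine, dexamethasone and insulin, given after confluence. The sample labels do not say which medium these arrays received. They also do not say how many embryos or cultures the replicates stand for, so p-values measure only the spread between arrays, which may be technical.

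Protein kinase B alpha is activated downstream of phosphoinositide 3-kinase by insulin and growth factors, and it phosphorylates proteins that govern survival, glucose uptake, protein synthesis and cell division, among them the FoxO transcription factors, which it keeps out of the nucleus. Fibroblasts secrete and remodel the collagen matrix, pull on it through actin stress fibres, and leave the cell cycle when crowded or deprived of serum. Fibroblasts from embryos can also be driven towards adipocytes by hormone mixtures that hold a glucocorticoid.

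Akt1 signal was 96.9, 69.2, 61.6 and 54.7 on the time 0 arrays (replicates 1 to 4) and 81.6, 77.3, 71.3 and 77.7 at time 48, against means of 1173 and 1137 in wild type at those times. The PKBa-/- arrays were all far below the wild type means and below the signal limit given next; the gene passed that limit through wild type. The arrays of the 2 PKBa-/- times overlapped. The cells were checked as fibroblasts. All 10 fibroblast markers were above the signal limit for testing (a mean near 124), and their summed signal ran from 64964 to 72056 at time 0 and from 64510 to 67630 at time 48. Col1a1, Col1a2 and Col3a1, the chains of the fibrillar collagens, and Vim, the mesenchymal filament protein, were read at 12106, 17743, 9779.8 and 9055 on average at time 0. Of the 10 markers limma called 2 higher at time 48, Pdgfra (1.46) and Dcn (1.16), and 2 lower, Pdgfrb (-0.69) and Fn1 (-0.47). Of the markers of macrophages, endothelium, epithelium, skeletal muscle, neural cells, mesothelium, chondrocytes, osteoblasts and erythroid cells, 12 entered the test. Of these, 7 were above the limit on the PKBa-/- arrays (Csf1r, Kdr, Des, Nes, Sox9, Col2a1 and Sp7), and limma called 0 of them (Col2a1 higher and Sox9 lower at an unadjusted p under 0.05). The other 5 (Cd14, Upk3b, Wt1, Gpm6a and Alpl) had means from 15.4 to 90.2 there and passed the limit through other groups. Ptprc of leukocytes, Pecam1 of endothelium and Cdh1 of epithelium were at 18.1, 50.5 and 13.7, all below the signal limit. Of 9 adipocyte markers on the array, 4 were tested. Cebpa (0.51) and Lpl (0.92) rose, and Slc2a4 (-0.05) and Retn (-0.06) did not pass, while Adipoq and Fabp4, which define mature adipocytes, were at 20.0 and 37.4 at time 0 and 20.3 and 44.3 at time 48. In bulk RNA, fewer cells of a type and less RNA per cell cannot be told apart.

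Values below are log2 changes of signal plus 32 ± SE, time 48 minus time 0, from a limma fit to all 36 arrays. The SE and the p-values rest on the spread pooled over all 10 groups, wild type among them. The offset understates changes of dim genes. A gene is said to have risen or fallen where its Benjamini-Hochberg adjusted p was under 0.05 over the 7431 genes tested. Of these, 2179 (29.3%) changed. 1063 rose (14.3%) and 1116 fell (15.0%), and 92 (1.24%) rose and 82 (1.10%) fell at least 2-fold. The median change over all tested genes was -0.00 and the median size of change 0.15. The 4 arrays at time 48 lay wholly above those at time 0 in 1130 genes (15.2%) and wholly below in 1247 (16.8%). Within a group, replicates 1 and 2 tended to deviate together, and so did replicates 3 and 4 (correlation within such pairs 0.66 over all groups in limma). At time 48 the arrays of a pair correlated at 0.990 to 0.995 and arrays of different pairs at 0.981 to 0.987, while at time 0 these ranges met (0.988 to 0.992, and 0.981 to 0.989). The test was therefore repeated with each pair averaged to 1 value, called the pair-averaged test below. It called 548 genes (7.37%), 226 higher (3.04%) and 322 lower (4.33%), and all 548 were among the 2179. Its counts stand beside the main counts of the lists, and its p-values beside genes given with an SE that lost their call. Members given by their change alone are covered only by the count of their list.

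**Figure D1:**
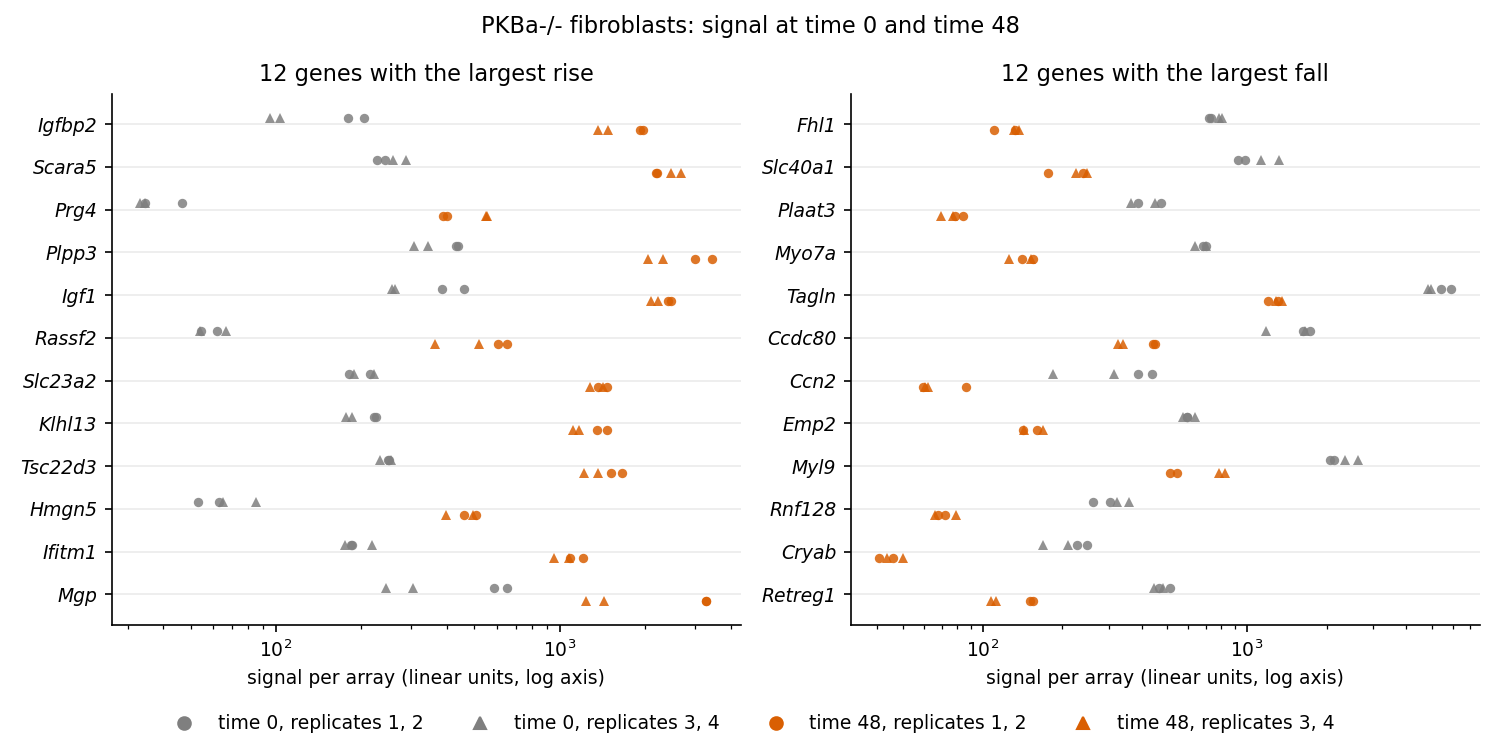
Signal on each of the 8 PKBa-/- arrays (horizontal axis, linear signal units on a log axis) for the 12 genes with the largest rise and the 12 with the largest fall whose arrays at the 2 times do not overlap; grey points are time 0, orange points time 48, circles replicates 1 and 2, triangles replicates 3 and 4. Igfbp2 went from between 95.1 and 204 to between 1357 and 1958, and Tagln from between 4826 and 5915 to between 1198 and 1358.

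The genes of this and the next paragraph were chosen among called genes whose arrays at the 2 times do not overlap. Their lack of overlap is therefore no further result. Igfbp2 and Scara5 had the largest rises among these genes. Igfbp2, a secreted protein that binds insulin-like growth factors, gave 179, 204, 103 and 95.1 at time 0 and 1911, 1958, 1477 and 1357 at time 48. Replicates 3 and 4 were the lower ones at both times. Its change was 3.30 ± 0.25 (adjusted p = 3.9e-12). Scara5, a cell surface receptor for ferritin, was 241, 227, 287 and 259 and then 2196, 2171, 2462 and 2666 (3.07 ± 0.12, adjusted p = 3.1e-18). Igf1, the growth factor itself, was 385, 459.9, 263 and 257 and then 2455, 2408, 2088 and 2211. The time 0 arrays of replicates 3 and 4 were lowest, and the change was 2.67 ± 0.44 (adjusted p = 1.7e-05). Plpp3, a membrane phosphatase that breaks down lysophosphatidic acid, was 431, 439, 344 and 305 and then 2985, 3441, 2038 and 2309, highest in replicates 1 and 2 at both times (2.71 ± 0.25, adjusted p = 6.8e-10). Prg4, the joint lubricant lubricin, was dim at time 0 (46.5, 34.6, 34.5 and 33.3) and reached 386, 401, 552 and 547 at time 48. Its change of 2.85 ± 0.58 carried a large SE (adjusted p = 3.0e-04), and the pair-averaged test gave adjusted p = 0.087. The wild type arrays at time 0, which enter that SE, were 1249, 1345, 82.2 and 68.4. Slc23a2, a transporter of ascorbate, rose by 2.60 ± 0.15. The Ras-binding protein gene Rassf2 rose by 2.61 ± 0.16, Klhl13, a substrate adaptor of a ubiquitin ligase, by 2.48 ± 0.13, and Hmgn5, a nucleosome-binding protein, by 2.34 ± 0.16. Tsc22d3, a textbook glucocorticoid target, rose by 2.39 ± 0.16 (2.32 and 0.30 on its other bright probe sets), the membrane protein gene Ifitm1 by 2.32 ± 0.11 and Mgp, an inhibitor of matrix calcification, by 2.25 ± 0.31. Mgp stood far higher in replicates 1 and 2 (3259, 3262, 1428 and 1240.4 at time 48). All of these except Prg4 also passed the pair-averaged test.

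Fhl1 and Slc40a1 had the largest falls among the genes so chosen. Fhl1, a LIM domain protein of muscle and stress fibres, went from 732, 717, 785 and 802 to 110.4, 132, 131 and 137. The spread within each time was small beside the gap (-2.31 ± 0.13, adjusted p = 8.6e-15). Slc40a1, which encodes the iron exporter ferroportin, went from 981, 922, 1322 and 1127 to 176, 241, 225 and 249 (-2.13 ± 0.13, adjusted p = 1.2e-14). Tagln, a smooth muscle protein that binds actin, was 5432, 5915, 4826 and 4946 and then 1314, 1198, 1282 and 1358 (-2.01 ± 0.11, adjusted p = 1.3e-15). Plaat3, a phospholipase, fell by 2.04 ± 0.10, the unconventional myosin gene Myo7a by 2.02 ± 0.12 and Emp2, a tetraspan membrane protein, by 1.77 ± 0.11. Ccdc80, a secreted matrix protein, was 1733, 1631, 1659.7 and 1175 and then 439.7, 447, 339 and 325, with replicate 4 lowest at both times (-1.91 ± 0.28, adjusted p = 2.2e-06). Ccn2, the connective tissue growth factor, went from 388, 436, 313 and 184 to 86.1, 59.2, 60.3 and 62.3. Its time 0 arrays were widely spread. The wild type arrays that enter the SE were too (2609, 2550, 659 and 586 at time 48). The change was -1.82 ± 0.46 (adjusted p = 0.0027), and the pair-averaged adjusted p was 0.16. Rnf128, a ubiquitin ligase, fell by 1.72 ± 0.12, the small heat shock protein gene Cryab by 1.67 ± 0.11, and Retreg1, a receptor for autophagy of the endoplasmic reticulum, by 1.64 ± 0.13. Ccn2 was the exception among these falls in the pair-averaged test.

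**Figure D2:**
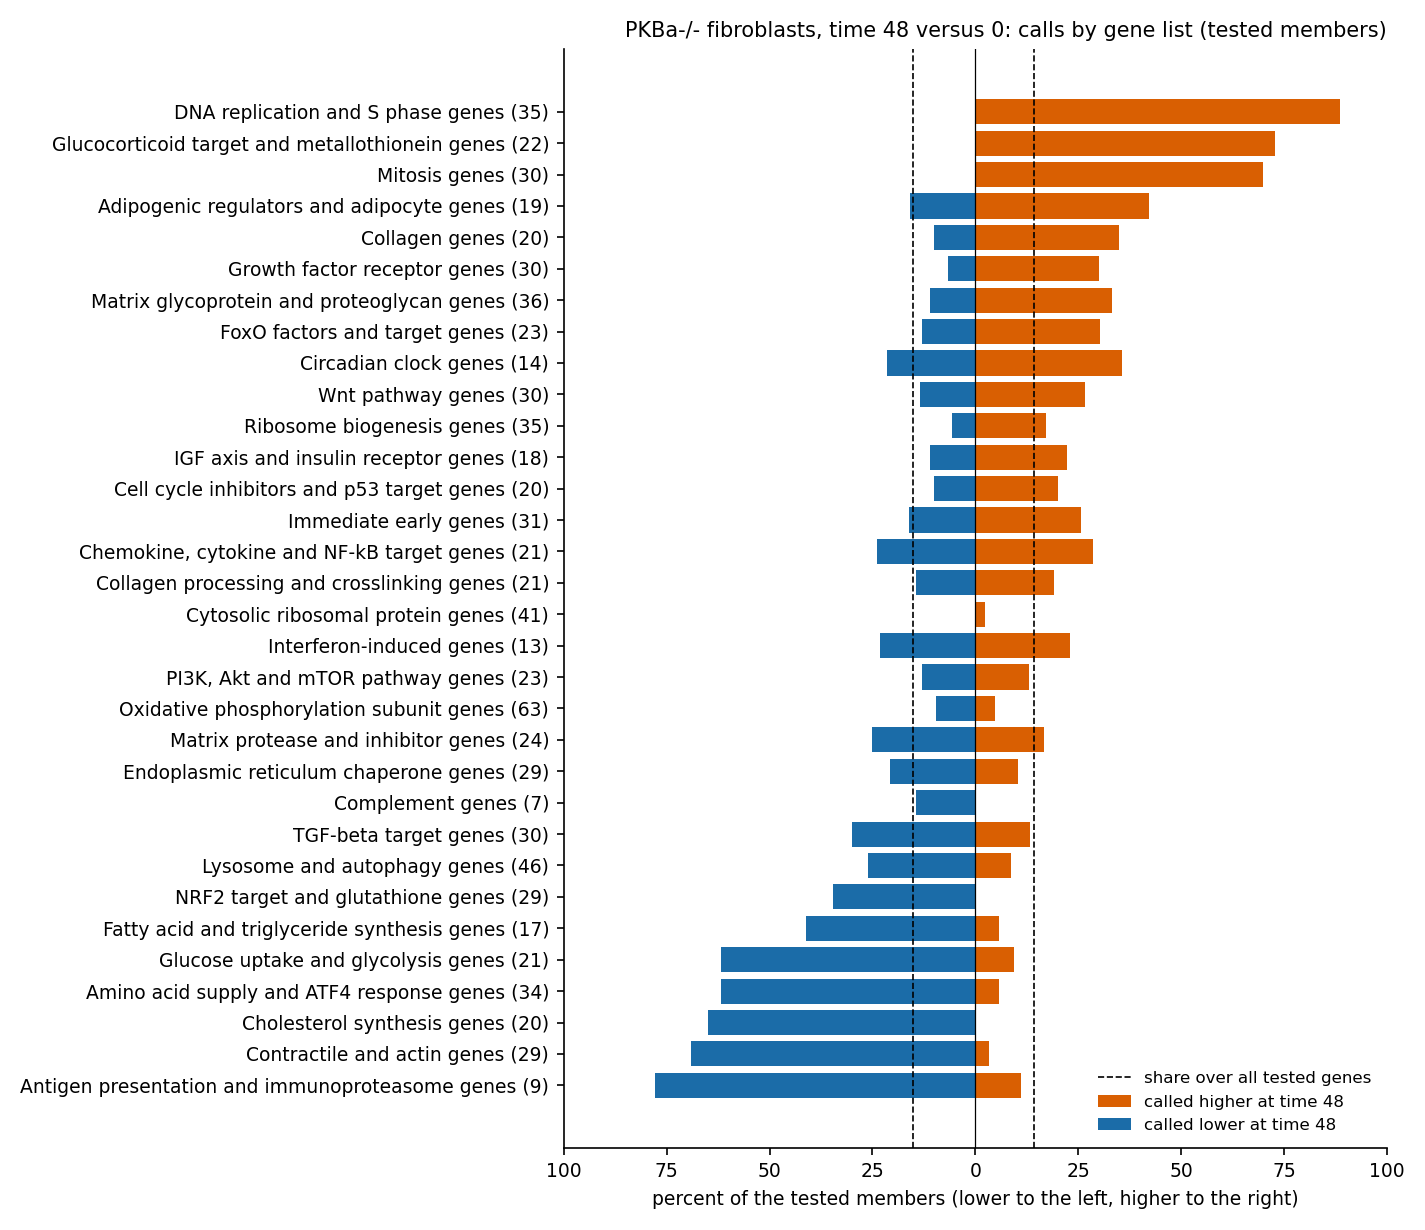
Share of the tested members of each gene list called higher (orange, to the right) or lower (blue, to the left) at time 48 in PKBa-/- fibroblasts, in percent, with the number of tested members in brackets; dashed lines mark the shares over all tested genes, 14.3% higher and 15.0% lower. DNA replication, glucocorticoid target and mitosis genes reach furthest to the right, and antigen presentation, contractile and cholesterol synthesis genes furthest to the left.

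Genes of DNA replication and cell division were higher at time 48. Of 35 tested DNA replication and S phase genes, 31 rose and 0 fell, with a median change of 0.44 beside -0.00 over all tested genes. Of 30 tested mitosis genes, 21 rose and 0 fell, with a median of 0.42. Also at an unadjusted p under 0.05, limma gave 0 falls in both lists. The arrays of the 2 times did not overlap in 31 and 16 of them. Cdc7, the kinase that fires replication origins, gave 72.3, 84.7, 69.9 and 78.4 at time 0 and 246, 259, 183 and 192 at time 48, with replicates 1 and 2 highest at time 48 (1.21 ± 0.13, adjusted p = 1.7e-08). Rrm2, a subunit of ribonucleotide reductase, was 530.0, 675, 533 and 427 and then 1224, 1377, 991 and 1132 (1.09 ± 0.14, adjusted p = 5.0e-07). Pcna, the sliding clamp of DNA polymerases, was 2164, 2285, 2001 and 2295 and then 4219.6, 4404, 4709 and 4518, and no array of the 2 groups came near the other (1.02 ± 0.12, adjusted p = 6.8e-08). The helicase subunit genes Mcm7 (0.80) and Mcm5 (0.76) and the clamp loader gene Rfc5 (0.89) rose as well, whereas Dbf4 (-0.04), Rfc3 (-0.02), Rrm1 (0.11) and Chaf1b (0.30) did not pass. On the mitosis list, Ube2c, a ubiquitin-conjugating enzyme of the anaphase-promoting complex, was 596, 725, 753 and 924 and then 1353, 1364, 1327 and 1299. Its time 48 arrays were tightly grouped above a wide spread at time 0 (0.82 ± 0.17, adjusted p = 2.5e-04). Cdk1, the mitotic kinase, was 517, 570.2, 580.4 and 685 and then 1094, 1065, 1032 and 927 (0.78 ± 0.11, adjusted p = 1.7e-06), and Top2a, which untangles DNA, changed by 0.76 ± 0.15. The Aurora kinase genes Aurkb (0.62) and Aurka (0.38) rose too, while Kif23 (-0.09), Pttg1 (0.07) and Ccna2 (0.20) did not pass. The replicate sets differed in size: the median change was 0.58 in replicates 1 and 2 and 0.33 in replicates 3 and 4 for replication genes, and 0.61 and 0.23 for mitosis genes. In the pair-averaged test 9 of 35 replication genes and 1 of 30 mitosis genes, Cdk1, were called, and Ube2c and Top2a had adjusted p = 0.073 and 0.073.

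Promoter windows are shown for the mitosis and the replication gene with the largest change among those that hold a textbook cell cycle element. RefSeq promoters of build GRCm38.p6 were read over the 250 bases before the start, on the gene's strand, and searched on both strands with overlaps between motifs allowed. The searched letters were TTTGAA for the cell cycle homology region (CHR), TTTGGCGC, TTTCGCGC or TTTCCCGC for an E2F site, and CCAAT, which is ATTGG on the other strand. Capitals mark matches on either strand. Ube2c lies on the plus strand at chr2:164769679-164769928 and holds a CHR match, on the other strand, 29 to 24 bases before the start. Mcm7 lies on the minus strand at chr5:138171884-138172133 and holds an E2F match, also on the other strand, 165 to 158 bases before the start.
Ube2c: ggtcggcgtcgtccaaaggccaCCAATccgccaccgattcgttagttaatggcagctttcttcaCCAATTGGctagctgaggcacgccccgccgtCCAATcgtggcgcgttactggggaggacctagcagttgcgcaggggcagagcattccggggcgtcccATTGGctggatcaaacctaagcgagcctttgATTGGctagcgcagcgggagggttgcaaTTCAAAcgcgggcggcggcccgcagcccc
Mcm7: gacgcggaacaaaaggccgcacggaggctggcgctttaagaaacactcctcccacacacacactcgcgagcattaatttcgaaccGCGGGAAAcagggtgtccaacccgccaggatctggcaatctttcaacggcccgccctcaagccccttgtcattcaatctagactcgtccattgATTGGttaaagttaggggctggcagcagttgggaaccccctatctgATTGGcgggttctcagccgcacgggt
The CHR letters were in 8 of 26 mitosis promoters (30.8%), beside 12.4% over 6058 tested genes with a window and in 5252 of 32851 windows of the table, and 7 of the 8 genes rose. An E2F match was in 6 of 30 replication promoters (20.0%), beside 3.96% and 1.53%, and 5 of the 6 genes rose. CCAAT was in 19 of 26 (73.1%) and 18 of 30 of these promoters, beside 40.4% and 33.8%. These matches are descriptions of the letters, and binding was not measured.

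Of 20 tested cell cycle inhibitors and p53 targets, 4 rose and 2 fell (pair-averaged 1 and 1), shares of 20% and 10% that lie near the 14.3% and 15.0% over all tested genes. Sesn1, a stress-induced regulator of mTOR, rose by 0.90 ± 0.12, and the cyclin-dependent kinase inhibitor genes Cdkn2c (0.58) and Cdkn2d (0.42) and the antiproliferative gene Btg1 (0.56) rose. Gadd45a, a growth arrest gene, went from 182, 216, 210.0 and 256 to 76.3, 93.9, 99.6 and 73.2 (-1.07 ± 0.16, adjusted p = 5.0e-06). Cdkn1a, the inhibitor p21, fell by 0.60 ± 0.20 (adjusted p = 0.024, pair-averaged 0.30), but without replicate 1 of time 0, or replicate 2 or 4 of time 48, its adjusted p was 0.056, 0.054 and 0.077, which left 1 gene of the list called lower. Of 35 ribosome biogenesis genes, 6 rose and 2 fell, 17.1% and 5.71%, the first again near the share over all genes. Rrp1b, a nucleolar processing factor, rose by 0.84 ± 0.10, Nolc1 by 0.48 ± 0.10 (pair-averaged adjusted p = 0.066) and Nop16 by 0.39 ± 0.11 (0.21), and 1 gene, Rrp1b, passed the pair-averaged test. Other bright probe sets gave 0.31 and 0.17 for Rrp1b and 0.84 and 0.16 for Nolc1. The 2 that fell were Utp20 (-0.26) and Imp4 (-0.21), and 1 of them was left without replicate 2 of time 0 or without replicate 1 or 4 of time 48. Of 41 cytosolic ribosomal protein genes 1 rose, Rps6 (0.47 ± 0.12, pair-averaged adjusted p = 0.075), and leaving out replicate 1 or 2 of time 0, or replicate 3 of time 48, made it 2, and replicate 4 of time 48 made it 3.

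Contractile and actin genes fell. Of 29 tested genes, 20 fell and 1 rose, with a median of -0.52, and the 2 replicate sets gave -0.54 and -0.52. In 21 of them the time 48 arrays lay wholly below time 0, and 12 were called lower in the pair-averaged test. Beside Tagln, Myl9, the regulatory light chain of nonmuscle and smooth muscle myosin, was 2137, 2067, 2354 and 2620.2 and then 512, 542, 825 and 781, with replicates 1 and 2 lowest at time 48 (-1.76 ± 0.29, adjusted p = 2.2e-05). Tes, a focal adhesion protein, was 535, 564, 569 and 609 and then 152, 159, 213 and 163 (-1.57 ± 0.09, adjusted p = 4.0e-15). The adhesion genes Vcl (-1.09) and Zyx (-0.76), the tropomyosin gene Tpm1 (-1.17) and the smooth muscle actin gene Acta2 (-0.81) fell as well. The broadly expressed actin genes Actg1 (-0.29) and Actb (-0.18) fell too. Mrtfa, a coactivator of the serum response factor, was the gene that rose (0.39), and Srf itself was at -0.22 and did not pass.

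Serum response factor is known to bind the CArG box, so the windows of the 2 called members with the largest change among those that hold the box are given. Myl9 lies on the plus strand at chr2:156775214-156775463 and holds it 161 to 152 bases before the start, and Vcl on the plus strand at chr14:20929148-20929397, 227 to 218 bases before the start. Capitals mark the box.
Myl9: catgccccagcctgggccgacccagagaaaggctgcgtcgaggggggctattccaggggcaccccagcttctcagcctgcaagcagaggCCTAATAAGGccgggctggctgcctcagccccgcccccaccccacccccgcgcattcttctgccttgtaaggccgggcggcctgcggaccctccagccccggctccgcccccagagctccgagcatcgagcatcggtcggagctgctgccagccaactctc
Vcl: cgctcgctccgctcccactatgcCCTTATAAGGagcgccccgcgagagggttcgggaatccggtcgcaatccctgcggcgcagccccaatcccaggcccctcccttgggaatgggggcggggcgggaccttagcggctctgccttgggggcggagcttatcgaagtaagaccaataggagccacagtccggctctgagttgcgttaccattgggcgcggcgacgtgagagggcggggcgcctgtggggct
The box was in 7 of 27 contractile promoters (25.9%), beside 1.37% over tested genes and 1.47% of all windows. Of these 7 genes, 5 fell (Myl9, Vcl, Fhl2, Cnn2 and Actg1), and Srf and Myl6 did not pass.

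TGF-beta targets, which overlap in part with contractile and matrix genes, held 9 falls and 4 rises among 30 tested genes. The falls were 30% beside 15.0% of all tested genes, and the rises, 13.3%, lay near the 14.3% over all. The median was -0.15, and 3 and 3 were called in the pair-averaged test. Ccn2, described above, and its relative Ccn1 (-1.02), the ligand gene Tgfb3 (-1.23 ± 0.24) and the feedback genes Skil (-0.97) and Tgif1 (-0.98) fell. The genes that rose were Fst, which encodes the activin antagonist follistatin (107, 91.9, 96.6 and 95.1, then 395, 410.4, 472 and 483; 1.86 ± 0.21, adjusted p = 2.9e-08), the ligand gene Tgfb2 (0.91), and Id1 (0.98) and Id2 (0.85), inhibitors of basic helix-loop-helix factors that are best known as targets of bone morphogenetic proteins. Tgfb3 had a pair-averaged adjusted p of 0.076.

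Cholesterol synthesis genes fell. Of 20 tested genes, 13 fell and 0 rose, in limma also at an unadjusted p under 0.05 (median -0.51, and -0.57 and -0.49 in the replicate sets), and 4 were called lower in the pair-averaged test. Fdps, which makes farnesyl diphosphate, was 1774, 1924, 2064 and 2289.7 at time 0 and 678, 799, 753 and 706 at time 48, without overlap (-1.41 ± 0.18, adjusted p = 4.3e-07). Msmo1, a sterol demethylating oxidase, was 1743, 1655, 1593 and 1309 and then 686, 767, 589.7 and 702, again without overlap (-1.16 ± 0.18, adjusted p = 9.0e-06). Fdft1, which makes squalene, fell by 1.08 ± 0.16, the synthase gene Hmgcs1 by 0.80 and the squalene oxidase gene Sqle by 0.72. Cyp51 (0.04) and Dhcr7 (0.18), enzymes of the later sterol steps, did not pass. Of 17 fatty acid and triglyceride synthesis genes 7 fell and 1 rose (pair-averaged 2 lower), with Me1, a supplier of NADPH, at -1.43 ± 0.14 and the desaturase genes Fads2 and Fads1 at -0.74 ± 0.10 and -0.65 ± 0.12 (pair-averaged adjusted p = 0.051 for Fads1). The gene that rose was Fasn (0.34), and it was not called without replicate 1 or 2 of time 48 or without replicate 4 of time 0.

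The windows of Msmo1 and Hmgcs1 are given because CCAAT boxes, which cooperate with sterol regulatory elements, were in all 16 windows found for the 20 cholesterol genes. As given above, 40.4% of tested genes and 33.8% of all windows hold CCAAT, and 9 of the 16 genes fell. The other lists searched were also above these shares, from 47.1% of glucocorticoid target promoters to 73.1% of mitosis promoters. The sterol regulatory element itself, searched as a fixed sequence without variants, was in 0 of the 16 windows. It was in 4 of 6058 tested genes and in 24 of 32851 windows of the table. Such a search cannot tell whether variants of the element are present. The E-box CACGTG was in 3 of the 16 (18.8%), beside 639 of 6058 tested genes and 6.02% of all windows. Msmo1 lies on the minus strand at chr8:64733579-64733828 and Hmgcs1 on the plus strand at chr13:119690101-119690350. Capitals mark CCAAT on either strand, 3 matches in each.
Msmo1: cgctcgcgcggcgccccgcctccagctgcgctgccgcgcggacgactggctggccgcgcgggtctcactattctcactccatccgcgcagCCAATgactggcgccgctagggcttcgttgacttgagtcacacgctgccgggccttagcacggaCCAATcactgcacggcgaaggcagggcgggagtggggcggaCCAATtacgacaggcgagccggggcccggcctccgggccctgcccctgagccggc
Hmgcs1: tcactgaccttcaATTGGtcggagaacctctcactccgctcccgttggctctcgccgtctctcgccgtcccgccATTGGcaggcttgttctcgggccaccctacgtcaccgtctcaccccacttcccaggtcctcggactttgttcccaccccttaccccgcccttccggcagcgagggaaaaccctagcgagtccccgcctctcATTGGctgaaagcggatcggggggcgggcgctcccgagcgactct

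Genes that supply amino acids and follow the stress factor ATF4 fell. Of 34 tested, 21 fell and 2 rose (median -0.39, and -0.46 and -0.41 in the replicate sets), and 9 were called lower and 1 higher in the pair-averaged test. Trib3, a pseudokinase known to bind Akt, was 522, 624, 684 and 678 at time 0 and 279, 272, 213 and 222 at time 48 (-1.24 ± 0.12, adjusted p = 1.5e-09). Chac1, a glutathione-degrading enzyme, was 707, 634, 609 and 599 and then 289, 286, 219 and 239 (-1.21 ± 0.13, adjusted p = 9.7e-09). Neither gene's groups overlapped. The asparagine synthetase gene Asns (-0.69), the serine synthesis gene Phgdh (-0.69), the tRNA charging genes Aars (-0.87) and Sars (-0.87) and the transporter gene Slc7a5 (-0.72) fell too. Atf4 itself was at -0.23 and did not pass. The genes that rose were Ddit4, an inhibitor of mTOR complex signalling (0.83 ± 0.16, pair-averaged adjusted p = 0.056), and Vldlr, a lipoprotein receptor. Vldlr was 222, 221, 277 and 251 at time 0 and 687, 824, 627 and 620.1 at time 48 (1.39 ± 0.13, adjusted p = 1.3e-09).

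Chac1 and Vldlr moved in opposite directions although both windows hold TTGCATCA, the core of the amino acid response element. It was in 5 of 27 promoters of the list (18.5%), beside 40 of 6058 tested genes and 0.791% of all windows. Of the 5 genes, Chac1, Aars and Nupr1 fell, Vldlr rose and Tars did not pass. Vldlr lies on the plus strand at chr19:27216770-27217019, with the letters 200 to 193 bases before the start, and Chac1 on the plus strand at chr2:119350992-119351241, with them 193 to 186 bases before it. Capitals mark TTGCATCA.
Vldlr: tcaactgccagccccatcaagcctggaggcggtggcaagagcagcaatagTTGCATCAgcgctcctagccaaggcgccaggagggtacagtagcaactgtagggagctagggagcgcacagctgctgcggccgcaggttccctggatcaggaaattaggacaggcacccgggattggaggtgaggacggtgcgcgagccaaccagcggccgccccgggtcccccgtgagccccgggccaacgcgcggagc
Chac1: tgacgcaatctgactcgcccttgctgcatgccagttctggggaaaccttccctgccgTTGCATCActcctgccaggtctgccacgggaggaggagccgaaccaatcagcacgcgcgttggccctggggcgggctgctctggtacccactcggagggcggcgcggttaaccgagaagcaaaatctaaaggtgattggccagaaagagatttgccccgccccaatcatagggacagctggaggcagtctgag

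Glycolytic genes fell as well. Of 21 tested genes for glucose uptake and glycolysis, 13 fell and 2 rose (median -0.37; pair-averaged 3 lower). Aldoa, the aldolase, was 4517, 4483, 4672 and 4279 and then 2619, 2700.1, 2139.9 and 2127 (-0.90 ± 0.15, adjusted p = 1.9e-05). Pfkp (-0.81 ± 0.15, pair-averaged adjusted p = 0.059), Ldha (-0.75), Tpi1 (-0.61) and the glucose transporter gene Slc2a1 (-0.31) fell. Slc16a1, which carries lactate across the membrane, rose by 0.87 ± 0.16 (pair-averaged adjusted p = 0.057), and the phosphofructokinase gene Pfkm rose (0.28). The 63 tested subunits of oxidative phosphorylation held 3 rises and 6 falls around a median of 0.00, and those counts were small enough that 1 array moved them: 6 and 0 rose without replicate 2 and without replicate 3 of time 0, and 2 fell without replicate 4 of time 0. Uqcrc1, a core subunit of complex III, was the member that fell in the pair-averaged test as well (-0.40 ± 0.07).

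Textbook targets of the glucocorticoid receptor and the metallothioneins rose. Of 22 tested genes, 16 rose and 0 fell, in limma also at an unadjusted p under 0.05 (median 0.74, and 0.83 and 0.58 in the replicate sets), and 10 were called higher in the pair-averaged test. Fkbp5, a cochaperone of the receptor, was 609, 497, 635 and 655 at time 0 and 2707, 2561, 2589.5 and 2610.4 at time 48, and its time 48 arrays were tightly grouped (2.08 ± 0.09, adjusted p = 5.2e-17). Tsc22d3 was 247, 249.8, 233 and 253 and then 1509.9, 1661, 1211 and 1362 (adjusted p = 3.0e-13). Per1, a clock gene with a glucocorticoid response, was 239.8, 202, 244 and 223 and then 704, 782, 744 and 685 (1.55 ± 0.08, adjusted p = 7.6e-16). The phosphatase gene Dusp1 (1.11 ± 0.13), the receptor inhibitor gene Errfi1 (1.68 ± 0.16), the metallothionein genes Mt1 (0.87) and Mt2 (1.60) and the glutamine synthetase gene Glul (0.85) rose. Zbtb16 (-0.10) and Hsd11b1 (0.23) did not pass. As stated above, the labels do not say whether dexamethasone was present, and its part in these values was not tested. Beside Per1, the clock list of 14 tested genes held 4 more rises and 3 falls (pair-averaged 1 higher and 2 lower). Nr1d2 and Nr1d1, the REV-ERB repressors, fell by 1.44 ± 0.18 and 0.56 ± 0.09. The rises besides Per1 were Clock (0.22), Cry2 (0.29), Hlf (0.32) and Csnk1d (0.33), and 3 genes of the list were called higher without replicate 2 of time 48 or replicate 3 of time 0, and 2 without replicate 4 of time 0.

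Of 31 tested immediate early genes, 8 rose (25.8%) and 5 fell (16.1%), beside 14.3% and 15.0% of all tested genes. The falls thus lay near the share over all genes. The median was 0.04, and 5 and 1 were called in the pair-averaged test. Of the rises, Errfi1, Per1 and Dusp1 are also on the glucocorticoid list. Fos (0.61) and Myc (0.67), proto-oncogenes of the serum response, rose, and Klf6 (-0.87) and Ccn1 fell. Of 19 tested adipogenic regulators and adipocyte genes, 8 rose (42.1%) and 3 fell (15.8%), the falls again near the share over all genes. The median was 0.13, and 2 and 1 were called in the pair-averaged test. Cebpb, an early adipogenic factor that is also on the glucocorticoid list, was 1288, 1479, 1297 and 1316 at time 0 and 3598, 3508, 3648 and 3472 at time 48, without overlap (1.38 ± 0.17, adjusted p = 1.0e-07). Klf5, another early factor, was 418, 396, 352 and 345 and then 1826, 1950.1, 1629.6 and 1757 (2.15 ± 0.49, adjusted p = 9.6e-04, pair-averaged 0.12), and 0.93 on its other bright probe set. Apoe, the lipoprotein component, was 259, 260.2, 163 and 179.9 and then 1196, 1198, 864 and 769 (2.07 ± 0.48, adjusted p = 0.0013, pair-averaged 0.13). The wild type arrays, which enter these SEs, were split at time 0. They gave 442, 389, 147 and 147 for Klf5 and 350, 391, 1845 and 1786 for Apoe. Dlk1, an inhibitor of adipogenesis, rose by 0.52. Plin2, the coat protein of lipid droplets, fell (-1.37), as did Fabp5 and Gata2, of which 1 gene was left called lower without replicate 1 or replicate 3 of time 48. The summed signal of the 9 adipocyte markers on the array was 1389 to 1822 at time 0 and 2327 to 2460 at time 48, most of it Lpl (mean 793, then 1498), and the part of adipocyte-like cells in these values was not tested. Pparg, the master factor of fat cells, was below the signal limit at 75.8 at time 0 and 55.0 at time 48.

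Among matrix proteins other than collagens, more genes rose than fell. Of 36 tested glycoprotein and proteoglycan genes, 12 rose (33.3%) and 4 fell (11.1%), beside 14.3% and 15.0% of all tested genes. The median was 0.15, and 5 and 1 were called in the pair-averaged test. Dpt, a small matrix protein that binds decorin, was 1116, 1065, 891 and 1117 at time 0 and 4817, 4866, 4496 and 4867 at time 48 (2.16 ± 0.10, adjusted p = 5.5e-17). Vcan, a large proteoglycan, was 1329, 1206, 1660.3 and 1287 and then 4712, 4789, 5176 and 5377 (1.86 ± 0.14, adjusted p = 4.6e-12). Neither overlapped between the times. The leucine-rich proteoglycan genes Ogn (1.31), Aspn (1.34) and Dcn (1.16) and the hyaluronan synthase gene Has2 (1.09) rose. Tnc (-0.95), Thbs1 (-0.58), Fn1 (-0.47) and Abi3bp (-0.68) fell. The main fibrillar chains did not pass, with Col1a1 at 0.08, Col1a2 at -0.09 and Col3a1 at 0.14. Of 20 collagen genes 7 rose and 2 fell (pair-averaged 2 and 2), and without replicate 2 of time 48 the rises were 4. The basement membrane chains Col4a1 (0.80) and Col4a2 (0.88) rose in both tests. Col7a1, of anchoring fibrils, went from 2125, 1741, 1853 and 2111 to 629.8, 634, 537 and 625 (-1.64 ± 0.15, adjusted p = 2.8e-10), and Col4a5, another basement membrane chain, from 687, 638, 823 and 765 to 157, 157, 285 and 318 (-1.59 ± 0.20, adjusted p = 2.1e-07).

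Among 21 collagen processing and crosslinking genes 4 rose and 3 fell (median 0.13; pair-averaged 1 and 1), 19.0% and 14.3%, near the shares over all genes. Plod2, the lysyl hydroxylase that shapes collagen crosslinks, was 513, 514, 568 and 603 and then 1798, 1710.1, 1543 and 1551 (1.53 ± 0.09, adjusted p = 3.4e-14), while the lysyl oxidase relatives Loxl4 (-0.95 ± 0.20, pair-averaged adjusted p = 0.091) and Loxl3 (-0.53) and the enhancer gene Pcolce2 (-0.65 ± 0.10) fell. Of 24 matrix proteases and inhibitors 4 rose (16.7%, near the 14.3% over all tested genes) and 6 fell (25%). The median was -0.19, and 2 and 5 were called in the pair-averaged test. Mmp3, stromelysin, was 284, 290.4, 227 and 209 and then 948, 1067, 1182 and 1321 (2.03 ± 0.54, adjusted p = 0.0041, pair-averaged 0.19). Its wild type arrays at time 0, which enter the SE, were 395, 425, 2294 and 2366. Adamts5, an aggrecanase, went from 853, 796, 821 and 768 to 317, 298, 278 and 256 (-1.40 ± 0.11, adjusted p = 2.0e-11). Timp3, a matrix-bound protease inhibitor, fell by 1.35 ± 0.17, with its time 0 arrays highest in replicates 1 and 2 (776, 722, 426 and 505).

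On the IGF axis, the called rises were in a ligand and its binding proteins, and the counts lay near the shares over all tested genes. Of 18 tested genes of the IGF axis and insulin receptor, 4 rose (Igfbp2, Igf1, Igfbp3 and Igfbp5) and 2 fell (Htra1 and Grb14). These were 22.2% and 11.1%, beside 14.3% and 15.0% of all tested genes, and 3 and 1 passed the pair-averaged test. In wild type 3 rose and 2 fell, with a list median of 0.11 beside 0.10 in PKBa-/-. Igf1 rose there too (1.19 ± 0.44, adjusted p = 0.041 in limma), and its difference between genotypes was not called (adjusted p = 0.11). The wild type rise lay in replicates 1 and 2 (2.21) and not in replicates 3 and 4 (0.16). In PKBa-/- cells these sets gave 2.44 and 2.90. Igfbp3, the main carrier of the growth factors in serum, was 37.0, 41.1, 41.2 and 39.1 at time 0 and 301, 322, 234 and 354 at time 48 (2.21 ± 0.35, adjusted p = 8.4e-06). The receptor gene Igf1r (-0.20) and the adaptor genes Irs1 (-0.08) and Irs2 (0.11) did not pass. Of 23 tested genes of the PI3K, Akt and mTOR pathway 3 rose and 3 fell (median 0.05; pair-averaged 1 and 1), 13.0% each way and so at the background of all tested genes, and 1 was called lower without replicate 3 of time 48. Pik3r1, the regulatory subunit of phosphoinositide 3-kinase, was 121, 92.8, 105 and 90.4 and then 365, 426, 345 and 370.2 (1.61 ± 0.16, adjusted p = 1.2e-09). Eif4ebp1, a repressor of translation that mTOR inactivates, fell by 0.73 ± 0.12. Akt2, the gene of the related kinase protein kinase B beta, was at 0.04 and did not pass. Of 23 FoxO factors and targets 7 rose (30.4%) and 3 fell (13.0%), the falls near the share over all genes. In the pair-averaged test 2 and 3 were called. Foxo3 (0.35), Bcl2l11 (0.53) and Sesn1 were among the rises and Gadd45a and Klf6 among the falls. Of the 7, Pik3r1, Ddit4, Sesn1 and Btg1 are on other lists as well.

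Of 30 tested growth factor receptor genes 9 rose (30%) and 2 fell (6.67%), beside 14.3% and 15.0% of all tested genes. The list median was nevertheless -0.05, and 3 and 1 were called in the pair-averaged test. Pdgfra, the receptor of platelet-derived growth factor on mesenchymal cells, was 1191, 1272, 1255 and 1072 and then 3324, 3286, 3374 and 3396 (1.46 ± 0.15, adjusted p = 5.8e-09), whereas its relative Pdgfrb fell (-0.69). Fgfr1 rose by 0.91 ± 0.12, and the growth hormone receptor gene Ghr by 1.31 ± 0.32 (pair-averaged adjusted p = 0.15). Of 30 Wnt pathway genes 8 rose and 4 fell (pair-averaged 3 and 1), and 2 were called lower without replicate 3 of time 48. The rises were 26.7% and the falls 13.3%, the latter near the share over all tested genes. Lgr5, the receptor of R-spondins, was 405, 393, 289 and 232 and then 1024, 1118, 747 and 829 (1.42 ± 0.19, adjusted p = 4.0e-07). The coreceptor gene Lrp5 rose by 1.10 ± 0.16, while the target gene Axin2 (0.17) did not pass.

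Antigen presentation genes fell. Of 9 tested genes of antigen presentation and the immunoproteasome, 7 fell and 1, H2-D1 (0.37), rose (median -0.44; pair-averaged 3 lower), and H2-D1 was not called without replicate 4 of time 0. Psmb8, an inducible catalytic subunit of the proteasome, was 223, 225, 213 and 209.7 and then 128, 101, 106 and 95.3 (-0.85 ± 0.08, adjusted p = 4.1e-10). Psmb10, its partner, was 475, 521, 461 and 493 and then 297, 289.8, 279 and 242 (-0.75 ± 0.09, adjusted p = 7.5e-08), and Tap2, of the peptide transporter, fell (-0.46). Another 8 genes of the list were below the signal limit. Of 13 interferon-induced genes 3 rose, all of the Ifitm family, and 3 fell (Bst2, Irgm1 and Irf1), with 2 and 2 in the pair-averaged test. Of 21 chemokine, cytokine and NF-kB target genes 6 rose and 5 fell, and these counts rested on few arrays: leaving out 1 array gave 2 or 3 rises for replicates 1, 2 and 4 of time 0 and for replicates 2, 3 and 4 of time 48, and 3 falls for replicates 2 and 4 of time 48. Vcam1, an adhesion molecule, was the member called in the pair-averaged test (0.68 ± 0.11). Of 7 complement genes 1 fell, C1ra (-0.59 ± 0.16, pair-averaged adjusted p = 0.19), or 2 without replicate 2 of time 0 or replicate 3 of time 48. That 1 gene was 14.3% of the list, near the 15.0% of all tested genes that fell.

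Of 29 tested NRF2 target and glutathione genes 10 fell and 0 rose (median -0.18; pair-averaged 4 lower), 3 were higher at an unadjusted p under 0.05 in limma, and 1 rose without replicate 3 of time 0. Gsr, glutathione reductase, was 584, 597, 607 and 645 and then 293, 293, 269.6 and 283 (-1.02 ± 0.10, adjusted p = 6.2e-10), and the transferase genes Gsto1 (-0.91 ± 0.18, pair-averaged adjusted p = 0.065), Gstm1 (-0.89) and Gstm2 (-0.70) fell. Endoplasmic reticulum chaperones held 6 falls and 3 rises among 29 (median -0.01; pair-averaged 1 lower), with the oxidase gene Ero1a at -0.71 ± 0.08 and Hspa5, the main chaperone, at -0.05 and not called. The 3 rises became 1 without replicate 1 of time 0 or replicate 4 of time 48 and 0 without replicate 2 of time 48 or replicate 4 of time 0. Lysosome and autophagy genes held 12 falls (26.1%) and 4 rises (8.7%) among 46, beside 15.0% and 14.3% of all tested genes. The median was -0.06, and 2 and 2 were called in the pair-averaged test. The falls were 6 without replicate 1 or 2 of time 0 and 7 without replicate 3 or 4 of time 48. Lgmn, a lysosomal protease, fell by 0.77 ± 0.08, and Ctsk, a collagen-degrading protease, rose by 0.60 ± 0.09.

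The same interval was then compared with wild type, where 2127 of the 7431 genes (28.6%) changed, 822 higher (11.1%) and 1305 lower (17.6%), with 68 (0.915%) and 79 (1.06%) at least 2-fold. The difference of the 2 changes was called in 1063 genes (14.3%), 644 more positive (8.67%) and 419 more negative (5.64%) in PKBa-/- cells. With the replicate number as a block, 971 genes were more positive. With pairs averaged, 85 genes (1.14%) were called, 35 more positive (0.471%) and 50 more negative (0.673%). In all, 308 genes rose and 570 fell in both genotypes. Another 73 rose in PKBa-/- and fell in wild type, and 44 did the reverse. The difference was called in all of both groups, which opposite calls with the same SE in 1 fit already imply.

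**Figure D3:**
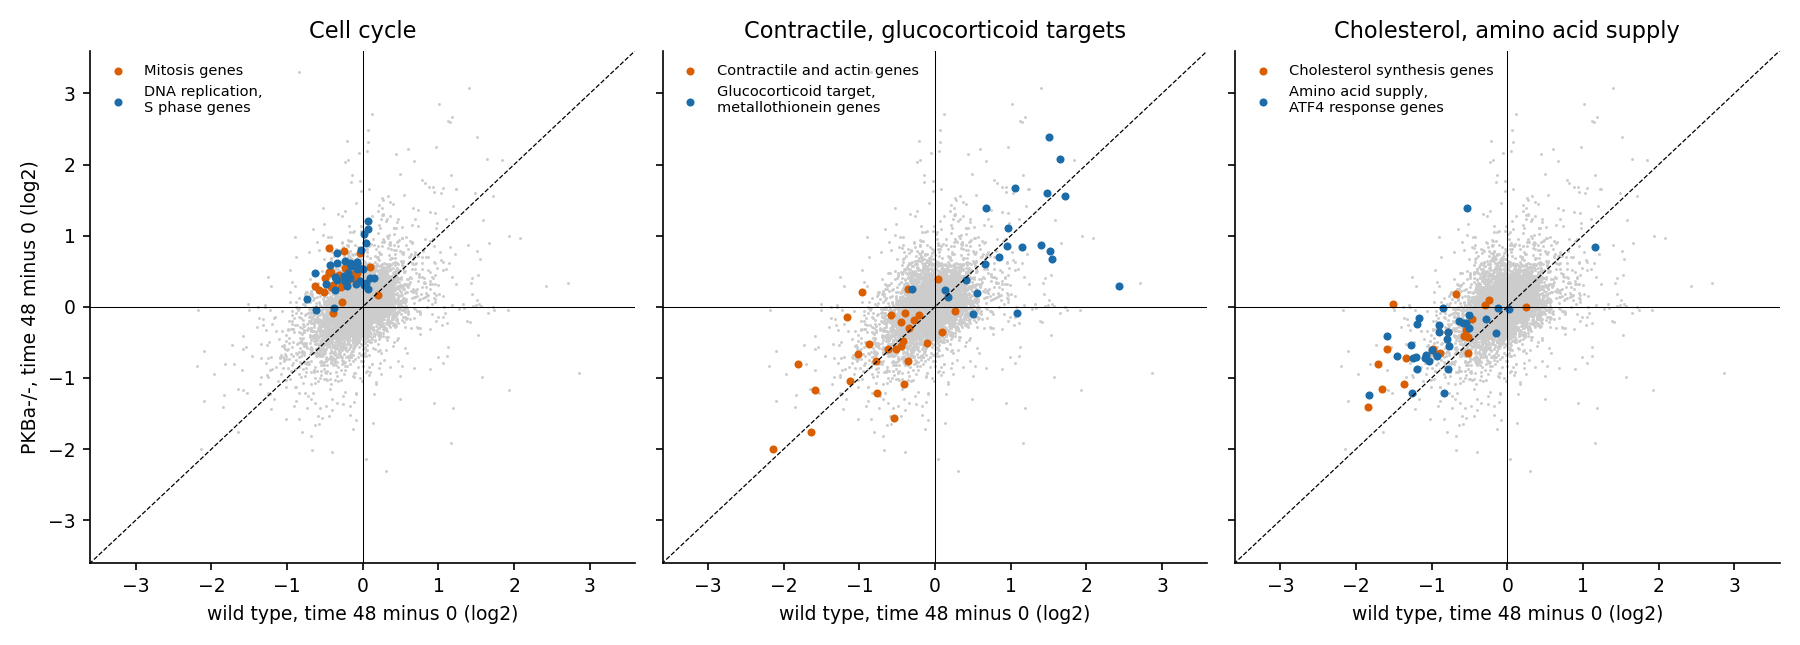
Log2 change from time 0 to 48 in PKBa-/- (vertical axis) against wild type fibroblasts (horizontal axis) for every tested gene (grey) and for 6 gene lists (coloured); the dashed line marks equal change. Nearly all replication and mitosis genes lie above the horizontal axis and mostly left of the vertical one, contractile genes lie in the lower left on both sides of the line, and cholesterol and amino acid genes lie mostly above the line in the lower left.

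The cell cycle lists differed between the genotypes. In wild type 0 of 35 replication genes rose and 9 fell (median -0.17), and 0 of 30 mitosis genes rose and 11 fell (median -0.29); at an unadjusted p under 0.05, limma gave 1 and 0 rises. The difference was called more positive in PKBa-/- in 27 and 25 of them, with medians of 0.69 and 0.71, and more negative in 0. The difference for Cdk1 was 1.02 ± 0.16 (adjusted p = 1.8e-05) and for Pcna 1.01 ± 0.17 (adjusted p = 8.7e-05), and the pair-averaged test in limma called 0 members of either list (25 and 22 at an unadjusted p under 0.05), with adjusted p = 0.076 for Cdk1 and 0.12 for Pcna. At time 0 PKBa-/- cells read lower than wild type for Cdk1 (mean 588 against 1004) and for Pcna (2186 against 2899), and at time 48 higher (1029.6 against 839.5, and 4463 against 2916). Ribosome biogenesis genes fell in 19 of 35 in wild type (median -0.30), and the difference was called in 15, all more positive, 1 of them, Nolc1, also with pairs averaged. Amino acid genes fell in 30 of 34 in wild type (median -0.87) and cholesterol genes in 16 of 20 (median -0.83), and the difference was more positive in 12 and 5 of them, of which the pair-averaged test called Vldlr alone (10 and 4 members at an unadjusted p under 0.05 in limma). Contractile genes fell in 24 of 29 in wild type with the same median of -0.52, and the difference was called in 5 genes more positive and 6 more negative, and in Tes with pairs averaged. Glucocorticoid targets rose in 19 of 22 in wild type (median 1.01), with a difference called in 4 each way, and in Lcn2 with pairs averaged. FoxO targets rose in 12 of 23 in wild type (median 0.36), where 11.1% of all genes rose. The difference was more negative in 7 and more positive in 2, beside 5.64% and 8.67% of all genes, and 0 were called with pairs averaged (7 at an unadjusted p under 0.05 in limma).

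Single genes stood out by the size of the difference. Igfbp2 rose in PKBa-/- and changed by -0.85 ± 0.25 in wild type, from a mean of 1476 to 839 beside 1676 in PKBa-/- cells at time 48. The difference was 4.15 ± 0.35 (adjusted p = 2.1e-10, pair-averaged 0.0029). Klhl13 and Hmgn5 differed by 2.42 ± 0.18 and 2.55 ± 0.23, Ifitm1 by 2.25 ± 0.16 and Dpt by 2.21 ± 0.14. All passed the pair-averaged test. In wild type Klhl13 averaged 271 and 286 at times 0 and 48. Hmgn5, Ifitm1 and Dpt averaged 105, 105 and 62.6 and then 87.6, 111 and 59.3 there, below the signal limit. Their wild type change is thus poorly measured. Plpp3 differed by 2.59 ± 0.36, Mmp3 by 2.26 ± 0.76 and Apoe by 2.26 ± 0.68, with pair-averaged adjusted p of 0.053, 0.54 and 0.47. In the other direction, Bst2, the antiviral tetherin, was 175, 193, 197 and 195 and then 72.6, 80.7, 81.0 and 105 in PKBa-/- (-0.93 ± 0.15), while its mean went from 185 to 1604 in wild type (2.86 ± 0.15). The difference was -3.79 ± 0.21 (adjusted p = 3.3e-14, pair-averaged 2.0e-04). Gbp2b, an interferon-induced GTPase, likewise fell in PKBa-/- (-1.17 ± 0.16) and rose in wild type (1.93 ± 0.16). Cav1 and Cavin2, which build caveolae, fell in PKBa-/- (-1.35 ± 0.12 and -1.43 ± 0.18) and rose in wild type (0.94 ± 0.12 and 1.19 ± 0.18). Cav1 was 1728, 1742, 1650.4 and 1484 on the PKBa-/- arrays at time 0 and 607, 727, 595 and 586 at time 48. Cavin2 averaged 176 and then 43.7 in PKBa-/-, the latter below the signal limit, against 1843 and then 4270 in wild type. Fhl1 and Ccdc80 differed by -2.61 ± 0.19 and -3.07 ± 0.39, and these and the caveolar genes passed the pair-averaged test of the difference.

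Arrays at the times in between show the course of the lists. The median of the replication genes, relative to the mean of time 0, was -0.14 at time 2 (2 arrays), 0.38 at time 6, 0.09 at time 24 and 0.46 at time 48 in PKBa-/- cells, whereas mitosis genes stood at -0.46, -0.18, 0.78 and 0.42. Replication genes were thus high at times 6 and 48 and mitosis genes highest at time 24. In wild type the mitosis median was 0.27 at time 24 and -0.29 at time 48. Glucocorticoid targets were already at 0.65 at time 2 in PKBa-/- cells and at 0.76 at time 48. Contractile genes were at 0.11 at time 2, -0.30 at time 6, -0.39 at time 24 and -0.54 at time 48. Cholesterol genes were at -0.36 at time 6, -0.06 at time 24 and -0.53 at time 48, with arrays from -0.30 to 0.17 at time 24. No test was made on these medians.

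**Figure D4:**
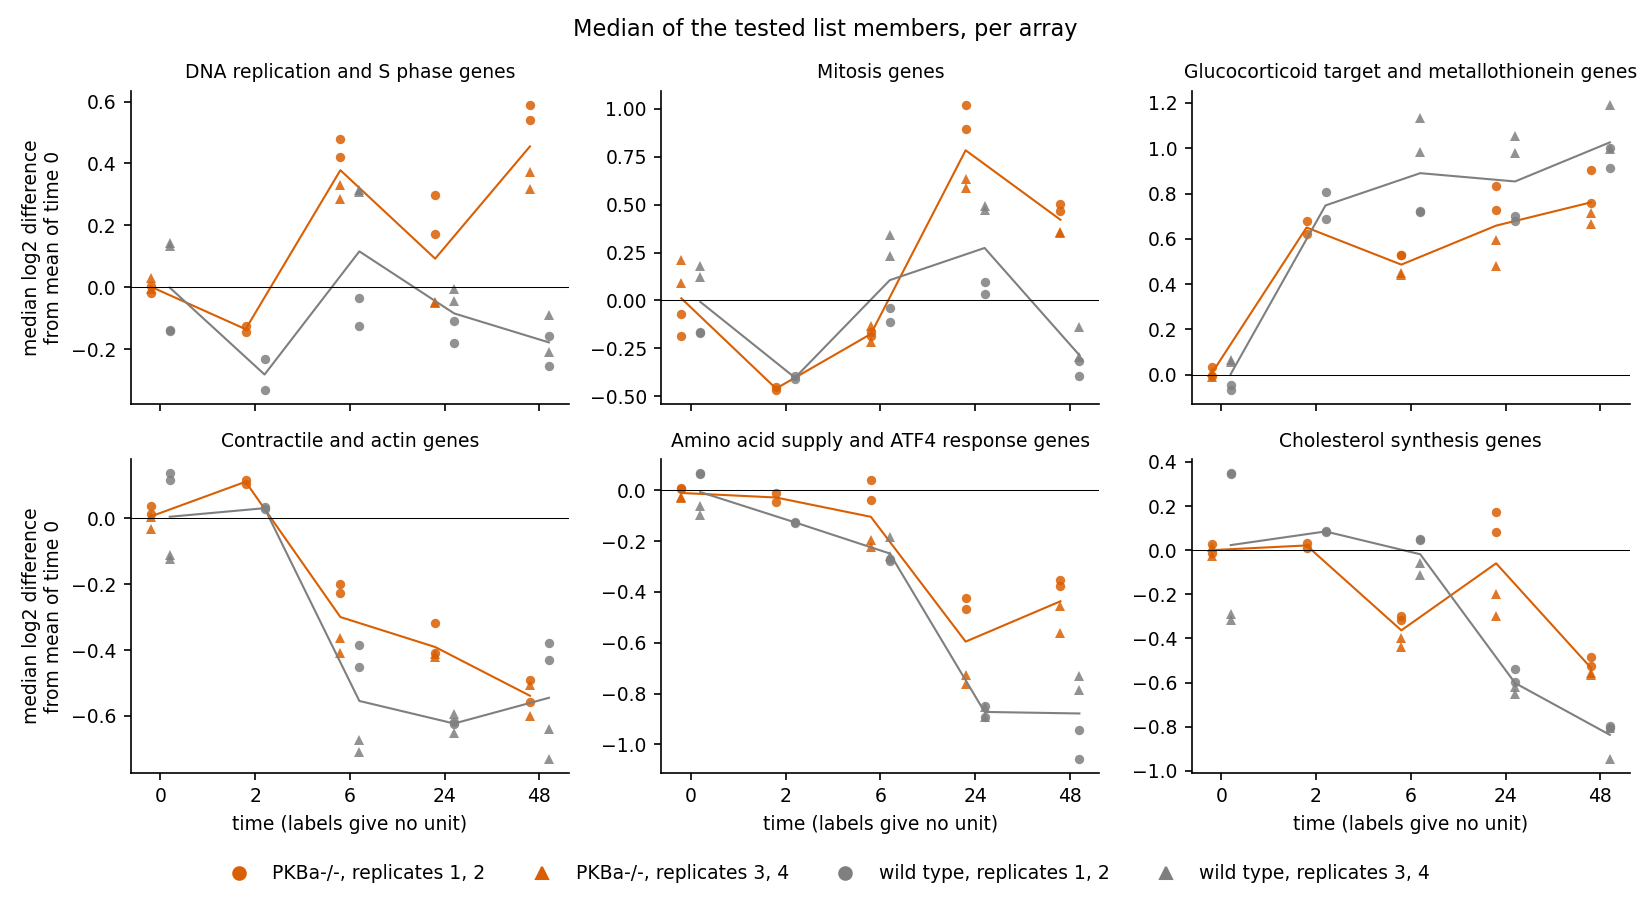
Median log2 difference of the tested list members from their mean at time 0 (vertical axis, scale differs between panels) on each array, by time (horizontal axis, times evenly spaced and not to scale; unit not given in the labels); orange is PKBa-/-, grey wild type, circles replicates 1 and 2, triangles replicates 3 and 4, and lines join group means. At time 48 the 4 PKBa-/- arrays lie between 0.32 and 0.59 for replication genes and between 0.35 and 0.50 for mitosis genes, above all wild type arrays of that time.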

How the data were processed

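Affymetrix arrays of wild type and PKBa-/- mouse embryonic fibroblasts were analysed. The authors deposited 1 linear signal (intensity) per probe set and array; its summarisation and scaling are not given in the sources used here. These values were used as deposited. Each gene was represented by its brightest probe set, of 22690 probe sets on the array, 20380 of which name 1 gene by the platform's annotation, giving 12384 genes. The deposited signals were turned into log2(signal + 32), the 40% of genes with the lowest mean over all 36 arrays were left out (limit near a signal of 124), and 7431 genes were tested. Array medians of the 8 arrays ran from 136 to 144. The number of arrays limits the precision.

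Group means were fitted with limma 3.58.1 in R 4.3.3 over all 36 arrays (26 residual degrees of freedom), with Benjamini-Hochberg adjustment over all tested genes, and the script was tested on simulated data. Replicate numbers are shared by the groups. Deviations from the group means of same-numbered arrays at times 0 and 48 correlated at 0.33, 0.45, 0.24 and 0.13 in PKBa-/-. In wild type they correlated at 0.54, 0.60, 0.66 and 0.51, and all values were above the limit of 0.1 set for this check. Differently numbered arrays were not compared, and arrays of a replicate pair deviated together. The check therefore cannot decide whether single numbers or only replicate pairs link the arrays of the times. The labels give no reason for the shared numbers. The alternatives were another offset, filter, choice of probe set, normalization, variance prior, treatment of replicates and set of arrays.

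The comparison and the gene lists were chosen with earlier results of these data known. Genes named with array values are Akt1, the 12 highest and 12 lowest called changes whose arrays do not overlap, the 6 highest and 6 lowest differences between genotypes called in both contrasts, and up to 3 called members with the largest change per list; other members are named with their change alone. Promoter windows are RefSeq's, of build GRCm38.p6, and motifs were chosen from textbook knowledge. List medians stand beside the median over all tested genes, without a test.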

Additional observations from a re-analysis of the deposited data

Results flagged for a closer look

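Single arrays stood apart in 9 of 212 groups of 4 arrays tested over the 106 named genes, a share near the 1 in 20 that chance gives, by the gap to the nearest array against the range of the group. At time 0 in PKBa-/- cells these were replicate 1 for Prg4 (46.5), replicate 4 for Ccdc80 (1175) and replicate 2 for Cebpb (1479). At time 48 they were replicate 1 for Ccn2 (86.1), replicate 2 for Cav1 (727), replicate 3 for Col7a1 (537) and Dpt (4496), and replicate 4 for Gsto1 (1862) and replicate 2 for Pfkp (86.0).

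Of the named genes, 64 had a change that differed between the genotypes by the limma test of the difference itself (Benjamini-Hochberg adjusted p under 0.05), and 23 of these were also called with pairs of arrays averaged. Over all tested genes the shares called were 14.3% and 1.14%. The named genes were chosen for large called changes or differences in these same data, so their counts say nothing beyond that choice. The values in brackets are the log2 change in PKBa-/- cells minus that in wild type. The difference was called in both tests, and was more positive in PKBa-/- cells, for Igfbp2 (4.15), Hmgn5 (2.55), Klhl13 (2.42), Ifitm1 (2.25), Dpt (2.21), Vldlr (1.92), Scara5 (1.67), Plod2 (1.28) and Nolc1 (0.97). It was called in both tests and was more negative for Bst2 (-3.79), Gbp2b (-3.09), Ccdc80 (-3.07), Cavin2 (-2.62), Fhl1 (-2.61), Cav1 (-2.29), Slc40a1 (-2.17), Col7a1 (-1.77), Plaat3 (-1.64), Rnf128 (-1.59), Myo7a (-1.34), Cryab (-1.03), Tes (-1.03) and Psmb8 (-0.93).

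Without the pair-averaged call, the difference was more positive by at least 2-fold for Plpp3 (2.59), Mmp3 (2.26), Apoe (2.26), Ghr (1.64), Igfbp3 (1.61), Pdgfra (1.54), Rassf2 (1.48), Slc23a2 (1.45), Fst (1.37), Mgp (1.28), Ube2c (1.27), Cdc7 (1.14), Slc16a1 (1.06), Cdk1 (1.02), Rrm2 (1.01) and Pcna (1.01), and by less for Rrp1b (0.91), Vcam1 (0.89), Tsc22d3 (0.88), Lrp5 (0.88), Top2a (0.81), Nop16 (0.78), Cebpb (0.72), Vcan (0.70), Pik3r1 (0.67), Fgfr1 (0.63), Trib3 (0.59), Ifitm2 (0.55) and Fkbp5 (0.43). It was more negative, again without that call, for Col4a5 (-1.50), Tgfb3 (-1.37), Retreg1 (-1.06), Timp3 (-1.01), Emp2 (-0.96), Me1 (-0.86), Sesn1 (-0.77), Gsr (-0.58), Psmb10 (-0.57), Lgmn (-0.54), Adamts5 (-0.49) and Ero1a (-0.36). Among these genes are cell cycle genes (Ube2c, Cdk1, Top2a, Cdc7, Rrm2 and Pcna), which rose in PKBa-/- cells, while in wild type 0 of these 6 rose by the test and Ube2c fell.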

How the results depend on the processing

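The arrays of a replicate pair resembled each other, and the treatment of pairs moved the counts most. With pairs averaged, 548 genes were called in PKBa-/- cells (226 higher, 322 lower) and 85 for the difference between genotypes (35 more positive, 50 more negative). With a random effect for the pair the counts were 911 (427 and 484) and 305 (179 and 126). Blocking on the replicate number called 2650 genes and 1556 differences, 971 of the latter more positive, and no called named gene lost its call. With the replicate set within genotype as a block, 3095 genes and 2094 differences (1302 and 792) were called. Replicates 1 and 2 alone gave 3051 (1669 higher) and 2124 (1226 and 898), and replicates 3 and 4 alone 2102 and 1456 (911 and 545). Leaving out 1 array gave 1812 to 1988 genes (higher 815 to 1060, lower 927 to 1030) and 873 to 1061 differences (489 to 665 and 335 to 432). Offsets, filters, probe set choice, quantile normalization, the variance prior and the arrays in the fit kept the counts in PKBa-/- cells within 1.5 times, from 1668 to 2493.

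Of the 106 named genes, all but Akt1 were chosen among called genes with large changes or differences. These 105 kept their direction in every alternative, which such a choice favours, and 76 were called in all. Akt1, not called, was at -0.036 in replicates 1 and 2 alone. Several list medians near 0 changed sign. FoxO targets (0.11) were at -0.0088 without a filter and -0.0028 in replicates 3 and 4 alone. Growth factor receptors (-0.05) were at 0.015 without a filter, 0.17 with the lowest 60% left out and 0.0051 in replicates 3 and 4 alone, and ran from -0.072 to 0.0014 when 1 array was left out, positive without replicate 2 of time 48. Chemokine and cytokine genes (-0.03) were at 0.0081 with the mean of all probe sets. Interferon-induced genes (-0.06) were at 0.037 and oxidative phosphorylation genes (0.00085) at -0.017 in replicates 3 and 4 alone, and the latter reached -0.044 without 1 array. Endoplasmic reticulum genes (-0.012) reached 0.0089 with the lowest 60% left out and 0.043 without 1 array, and without a filter cell cycle inhibitors (0.07) were just below 0 and complement genes (-0.12) at 0.0082. The cause was not tested. Of 58 other bright probe sets of named genes, 57 had the same sign, the exception being for Akt1, with a median size of 86.0% of the printed change; 7 had less than 50% of it, for Akt1, Tsc22d3, Cavin2, Rrp1b (2), Nolc1 and Klf5. For dim genes, signal near background limits the measured change.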

Other observations

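For some named genes the signal between times 0 and 48 lay outside the range of the other 2 times in PKBa-/- cells. Ccn2, the connective tissue growth factor, averaged 330.2 at time 0, 2562 at time 2 (2 arrays) and 67.0 at time 48. Dusp1, a phosphatase that shuts off MAP kinases, averaged 248, 3111 and 567 at those times, and Errfi1, an inhibitor of the EGF receptor, 224, 3376 and 782. The chemokine gene Cxcl1 was at 57.9, 1146 and 137, and Ccl2 at 193, 1082 and 108. Prg4 averaged 37.2 at time 0, 903 at time 6 and 472 at time 48. These levels were not tested.

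The 2 replicate sets differed in level for some matrix genes at both times. Col5a3, a minor fibrillar collagen chain, was 189, 185, 108 and 106 on replicates 1 to 4 at time 0 and 577, 601, 149 and 157 at time 48, and its rise of 0.96 ± 0.29 (adjusted p = 0.012) had a pair-averaged adjusted p of 0.26, and of 0.088 and 0.093 in the main test without replicate 1 and without replicate 2 of time 48. Mgp was more than 2-fold higher on replicates 1 and 2 than on replicate 3 at time 0 (588, 649, 244 and 305), and again at time 48.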
